A study of Mus musculus with 6 samples.

Results

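MiR-451a, miR-144 and miR-486 are microRNAs (miRNAs) of the red cell lineage, and their counts were followed here through heart cardiomyocytes of C57BL/6 mice at 2 stages. They were chosen by name: 7 of the 1974 mature rows of the count table belong to miR-451a, miR-144, miR-486a and miR-486b. The a and b copies of miR-486 held nearly the same counts in every library, so 5 distinct miRNAs remained of 1952, namely miR-451a, miR-144-3p, miR-144-5p, miR-486a-5p and miR-486a-3p. The groups were adult LncSync-/- knockouts (2 libraries), adult wild types (2), e13.5 LncSync-/- knockouts (1) and e13.5 wild types (1), where e13.5 is a stage in days after conception. LncSync is a long non-coding RNA. The labels give neither the age of the adults, nor how the allele was made or whether animals were pooled. Whether replicates are separate animals is not stated either, so each p-value speaks only to how far these libraries lie apart, which can be technical. No label records a batch, so stage cannot be told apart from how adult and embryonic hearts were dissected, dissociated and made into libraries.

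The miR-144 and miR-451a hairpins are cut from one primary transcript, which the erythroid factor GATA1 switches on in mouse red cell precursors. MiR-451a is unusual in that Ago2, and not Dicer, cuts its short hairpin. In mouse erythroid cells it represses Ywhaz, and miR-144 acts on Nrf2, a regulator of the oxidative stress response. MiR-486 lies in Ank1, the gene of an ankyrin found in red cells and, as a short form, in muscle. It is therefore known both as a red cell miRNA and as a muscle miRNA, with Foxo1 among its targets in muscle.

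The sequences below are RefSeq entries on GRCm38.p6 (the mm10 build) and show that these miRNAs share no seed, the stretch of bases 2 to 8 that pairs with targets. The table held 3 of the 7 mature rows. Capitals mark the seed, and none of the other mature miRNAs among the 1738 of that table carries any of these 3 seeds.
miR-451a: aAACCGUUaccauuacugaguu
miR-144-3p: uACAGUAUagaugauguacu
miR-144-5p: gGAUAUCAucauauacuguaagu
The hairpins differ in how the mature miRNAs sit in them. In the next lines capitals mark the mature miRNAs, a single one at bases 17 to 38 of 72 in Mir451a and a pair at bases 6 to 28 and 43 to 62 of 66 in Mir144.
Mir451a hairpin: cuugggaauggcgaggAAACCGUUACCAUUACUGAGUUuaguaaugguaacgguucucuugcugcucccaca
Mir144 hairpin: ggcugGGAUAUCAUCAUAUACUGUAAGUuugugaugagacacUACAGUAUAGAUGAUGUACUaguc

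Both hairpins lie on the plus strand of chromosome 11 with 99 bases between them, Mir144 at chr11:78073005-78073070 and Mir451a at chr11:78073170-78073241. GENCODE M21 places them outside protein-coding genes, with Eral1 the nearest, and lists the miRNA gene Mir451b on the opposite strand of Mir451a. Mir486 lies at chr8:23142555-23142682, plus strand, in an intron of Ank1, and another miRNA gene, Mir3107, lies on its opposite strand.

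Mature counts totalled 14347091 to 17933518 in the adult libraries, 2671957 in the e13.5 knockout and 8944552 in the e13.5 wild type. A count of 0 allows up to 3 counts, or 0.167 to 1.12 CPM (counts scaled to a common library size) over the 6 libraries. The label cardiomyocyte was set against a list of 7 muscle miRNAs, which held 28.0% to 39.4% of adult counts, 9.86% in the e13.5 knockout and 14.6% in the e13.5 wild type. Of that list 5 rose in adults by the test described next, 1 fell (miR-208b-3p, from a fetal myosin gene) and miR-1a-3p did not pass. Among all 679 miRNAs tested 28.4% rose and 29.3% fell. MiR-133a-3p had 2140343 to 2785165 counts in adults, but 3952 in the e13.5 knockout and 17221 in the e13.5 wild type. The knockout replicates stood further apart than the wild types, with a median absolute log2 difference of 0.703 against 0.292 over 162 abundant miRNAs. Levels below are CPM after scaling by the trimmed mean of M values (TMM) over all 6 libraries. The targeted long RNA is not in a miRNA table, so the genotype labels have no direct check here.

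The stages were compared first, and the red cell miRNAs of the 2 loci moved in opposite directions. Both miR-486 arms rose in adults, by 13.4 and 13.1 times, whereas miR-451a fell by 6.79 times and miR-144-3p by 8.73 times. MiR-144-5p did not pass the test. Together 4 of 5 members passed, 2 in each direction, beside 57.7% of all 679 miRNAs tested (28.4% higher and 29.3% lower in adults), and with 5 members the count itself is not read as particular to them. In bulk samples, fewer cells of a type and less RNA per cell cannot be told apart.

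MiR-451a, the erythroid-specific product of the chromosome 11 locus, had 5762 and 794 counts in the adult knockouts and 1912 and 1523 in the adult wild types, against 20165 in the e13.5 knockout and 3380 in the e13.5 wild type. Scaled levels were 418, 79.5, 118 and 120.0 CPM in the same adult order, against 3485 and 304 CPM at e13.5. One adult library, knockout replicate 1, stood above the e13.5 wild type, so the stages overlapped. The log2 fold of adult over e13.5 was −2.76 (SE 0.77, edgeR quasi-likelihood test, Benjamini-Hochberg adjusted p = 0.0146). Its size depended on the e13.5 knockout library: without it the log2 fold was −1.36 and the adjusted p = 0.223 in the same edgeR test. In the wild types alone, which lack that library too, the log2 fold was also −1.36. The spread in that fit comes from the adult wild types alone.

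The arms of miR-144, its neighbour, were rare everywhere. MiR-144-3p, the arm usually taken as the guide strand, had 54 and 11 counts in the adult knockouts and 12 and 30 in the adult wild types, against 90 in the e13.5 knockout and 207 in the e13.5 wild type. On the scaled level every adult library lay below both e13.5 libraries, at 0.742 to 3.91 CPM against 15.6 and 18.6 CPM. Among all tested miRNAs 74.4% had stages that did not overlap. The log2 fold was −3.13 (SE 0.76, edgeR adjusted p = 0.00797), and without the e13.5 wild type it was −2.68 with an adjusted p = 0.0753. MiR-144-5p had 178 and 47 counts in the adult knockouts and 71 and 82 in the adult wild types, against 91 and 70 in the e13.5 knockout and wild type. Its scaled levels of 4.39 to 12.9 CPM in adults overlapped the 15.7 and 6.30 CPM at e13.5. Adult over e13.5 was −0.54 on the log2 scale, with an SE of 0.65 and a BH-adjusted p of 0.490 from edgeR.

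MiR-486a-5p, the red cell and muscle miRNA from Ank1, had the most counts of the 5 in adults, 306969 and 96998 counts in the knockouts and 276781 and 169745 in the wild types. At e13.5 it had 17693 counts in the knockout and 2934 in the wild type. That was 9708 to 22250 CPM in adults, against 3058 CPM in the e13.5 knockout and 264 CPM in the e13.5 wild type. All adult libraries lay above both e13.5 libraries. It ranked between the 12th and the 26th most counted of all mature miRNAs in adults, the 24th in the e13.5 knockout and the 95th in the e13.5 wild type. The log2 fold was 3.75 (SE 0.93, edgeR adjusted p = 0.00874), and its size varied with the e13.5 libraries, at 5.85 without the e13.5 knockout and 2.33 without the e13.5 wild type, both still called. Without adult wild type replicate 1 or 2 the log2 fold was 2.96 or 3.10, with an edgeR adjusted p of 0.0625 or 0.0722. MiR-486a-3p, the less abundant arm, followed it with 165 to 481 CPM in adults and 39.2 and 9.28 CPM in the e13.5 knockout and wild type (log2 fold 3.71, SE 0.72, edgeR adjusted p = 0.0026).

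**Figure D1:**
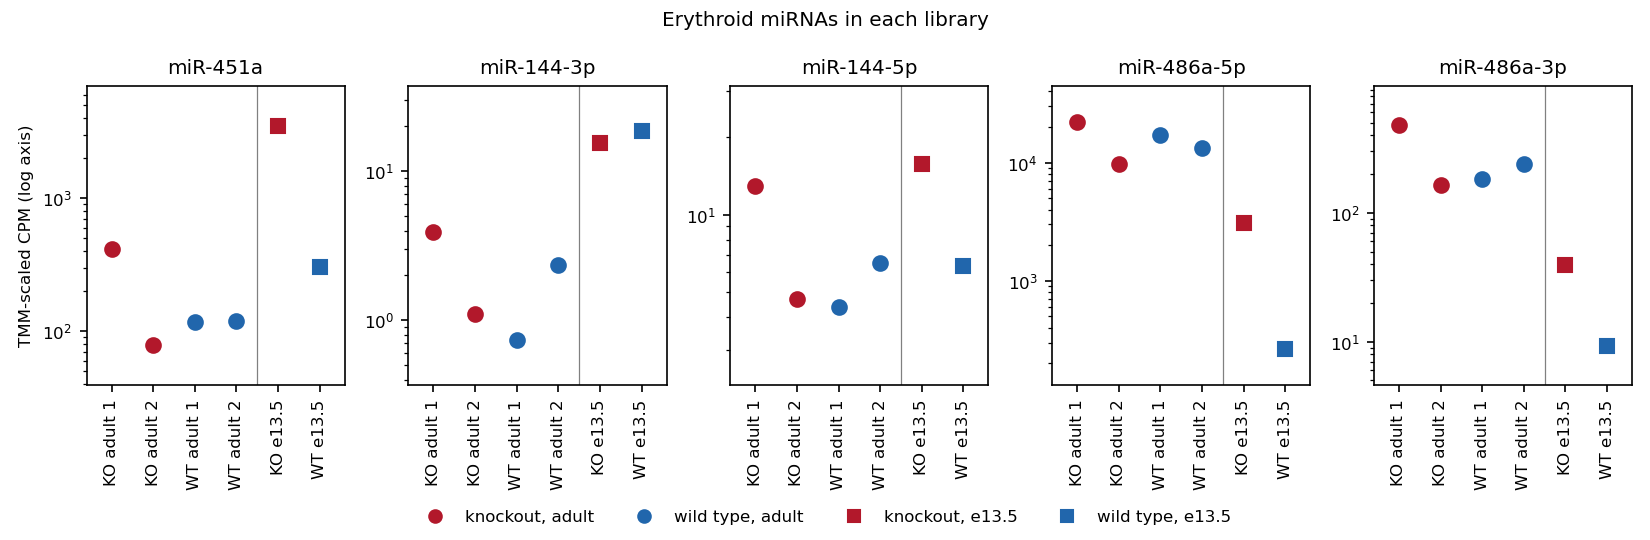
Level of each erythroid miRNA in each library, as TMM-scaled CPM on a log axis, with 1 point per library (red for knockout, blue for wild type, circles for adult, squares for e13.5). MiR-486a-5p and miR-486a-3p are higher in all 4 adult libraries than in both e13.5 libraries, miR-144-3p is lower in all 4, and miR-451a has its highest value, 3485 CPM, in the e13.5 knockout.

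The estimated stage difference was smaller in knockouts for the miR-486 arms and larger for miR-451a, but no difference between genotypes passed the test. In the knockouts alone miR-486a-5p had an adult over e13.5 log2 fold of 1.92, in the wild types alone 5.85. For miR-486a-3p the values were 2.58 in knockouts and 4.50 in wild types. MiR-451a was at −4.27 in knockouts and −1.36 in wild types, and miR-144-3p at −3.08 in knockouts and −3.59 in wild types. The genotype by stage interaction, which tests this difference, called 0 of 769 miRNAs with edgeR (0% as background), with 46 at an unadjusted p under 0.05 and 4 called by DESeq2. The interaction estimates, the adult minus the e13.5 log2 fold of knockout over wild type, were −3.48 (SE 0.91, edgeR adjusted p = 0.496) for miR-486a-5p and −2.48 (SE 1.22, edgeR adjusted p = 0.858) for miR-451a. That fit takes its spread from the adult libraries, and each e13.5 genotype is 1 library that is assumed to vary like them. Without adult knockout replicate 1 the interaction estimates were −4.16 for miR-486a-5p and −4.08 for miR-451a. Without replicate 2 they were −3.03 and −1.75 in the same order. Both of these smaller fits keep 1 adult knockout and take their spread from the adult wild types alone, so their calls are not read. With both knockouts kept no member was called.

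Scaling could not change the ratio of one miRNA to another within a library, and these ratios separated the loci. A ratio of counts is not a ratio of molecules, since small RNAs differ in how well they are ligated. The same ratio can be compared between libraries only so far as they were made alike. Between stages, a difference in how the libraries were made cannot be told apart. MiR-486a-5p outnumbered miR-451a by 53.3 times (exact 95% counting interval 51.9 to 54.7) and 122 times (114 to 131) in the adult knockouts and by 145 times (138 to 152) and 112 times (106 to 117) in the adult wild types. At e13.5 the ratio was 0.877 (0.860 to 0.895) in the knockout and 0.868 (0.826 to 0.912) in the wild type. The e13.5 libraries thus had ratios within each other's counting intervals, although both miRNAs were more than 4-fold apart between these libraries in level. On the log2 scale the mean adult ratio was 6.86 above the mean e13.5 ratio. Counting intervals cover counting error only.

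MiR-451a and miR-144-3p come from one transcript, but their ratio varied widely. MiR-451a exceeded miR-144-3p by 107 and 72.2 times in the adult knockouts and 159 and 50.8 times in the adult wild types. At e13.5 the ratio was 224 (182 to 279) in the knockout and 16.3 (14.2 to 18.9) in the wild type, so the e13.5 libraries were the highest and the lowest of the 6. The excess of miR-451a in the e13.5 knockout was therefore not matched by miR-144-3p from the same transcript.

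The balance of the miR-144 arms differed between stages. The ratio of miR-144-5p to miR-144-3p was 3.30 and 4.27 in the adult knockouts and 5.92 and 2.73 in the adult wild types. It was 1.01 (exact 95% counting interval 0.747 to 1.37) in the e13.5 knockout and 0.338 (0.254 to 0.445) in the e13.5 wild type. Thus 5p led in all adults, 3p led in the e13.5 wild type, and the arms were level in the e13.5 knockout. Such a split was common: of 93 hairpins with counts of both arms in every library and at least 50 in sum, the arm ratios of 72.0% did not overlap between stages, and miR-144 was the 44th by size of shift. For miR-486 the 5p to 3p ratio overlapped, at 46.3 to 94.2 in adults and 77.9 and 28.5 in the e13.5 knockout and wild type.

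**Figure D2:**
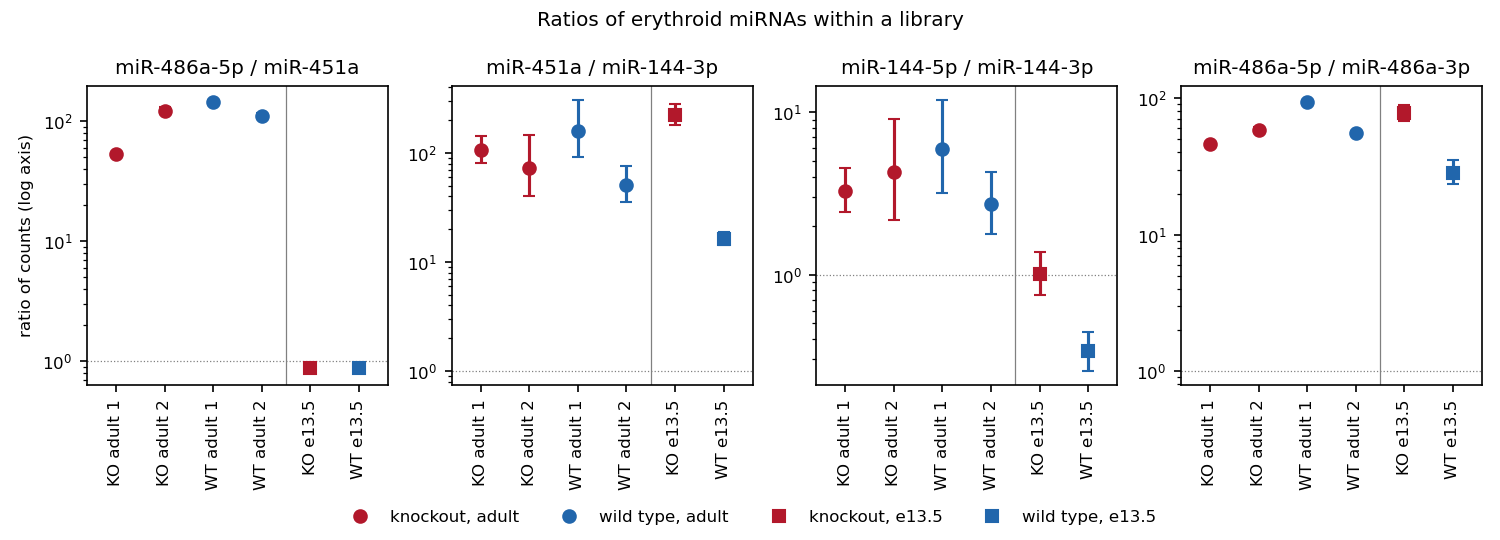
Ratios of counts within each library on log axes, with exact 95% counting intervals as bars (1 point per library, the dotted line marks a ratio of 1). MiR-486a-5p to miR-451a is 53.3 to 145 in adults and 0.877 and 0.868 at e13.5, while miR-451a to miR-144-3p spreads from 16.3 to 224 at e13.5.

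The knockout was set against the wild type within each stage. At e13.5, with 1 library per genotype and no test, miR-486a-5p and miR-451a were higher in the knockout by nearly the same factor, 11.57 (95% counting interval 11.13 to 12.04) and 11.45 (11.04 to 11.88) after TMM scaling. With library totals the factors were 20.19 and 19.97. MiR-486a-3p was 4.23 times higher (3.34 to 5.39). MiR-144-5p was 2.50 times higher (1.81 to 3.46), and miR-144-3p had a ratio of 0.834 (0.644 to 1.07). The sign for miR-144-3p depended on the scaling, at a log2 fold of −0.26 with TMM and 0.54 with library totals, so it has no firm direction. On the TMM scale 3 of the 5 members were at least 4-fold higher, beside 8.32% of the 565 miRNAs that reached 10 counts in one of the pair (median log2 fold −0.42). None of the 5 was 4-fold lower, beside 9.91% of these miRNAs. With library totals all but miR-144-3p passed 4-fold, beside 14.7% of these miRNAs. These values have no replicate check. Lists of other cell types were lower in the knockout of this pair, with median log2 folds on the TMM scale of −1.64 for 7 muscle, −1.31 for 2 endothelial and −1.46 for 4 smooth muscle and fibroblast miRNAs. Of the muscle list 2 were at least 4-fold lower, among them miR-208a-3p, from a cardiac myosin gene, with 33 counts in the knockout and 552 in the wild type (log2 fold −3.09). The smooth muscle and fibroblast list held 21.3% of counts in the knockout and 35.3% in the wild type, and the endothelial list 1.63% and 1.90% in the same order. Their part in the erythroid values was not tested.

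In adults none of the 5 passed the test, beside 0.735% of 544 miRNAs called, all of them lower in knockouts. MiR-451a averaged 249 ± 239 CPM in knockouts and 119 ± 1.33 CPM in wild types (SD, n = 2 each). Knockout over wild type was 1.13 on the log2 scale (SE 0.74), and edgeR's adjusted p was 0.999. MiR-486a-5p averaged 15979 ± 8869 CPM in knockouts and 15243 ± 2635 CPM in wild types (SD, n = 2 each), a log2 difference of 0.13 with an SE of 0.51 (edgeR, adjusted p = 0.999). The knockouts lay on either side of the wild types for miR-451a, miR-486a-5p and miR-486a-3p. Log2 folds of miR-486a-3p, miR-144-5p and miR-144-3p were 0.69, 0.77 and 0.77, again with adjusted p = 0.999 in edgeR. The 16 miRNAs at an unadjusted p under 0.05 in this fit did not include a member, and DESeq2 called 4, also without a member.

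Leaving out knockout replicate 1 turned the direction of all 5 members in adults. The fold of miR-486a-5p also turned without wild type replicate 2, to −0.15 on the log2 scale. All 5 members had their highest adult level in knockout replicate 1, as did 28.7% of all miRNAs tested, and 3 of them had their lowest in knockout replicate 2. Without replicate 1 the knockout over wild-type log2 folds were −0.53 for miR-451a, −0.59 for miR-486a-5p, −0.29 for miR-486a-3p, −0.15 for miR-144-5p and −0.43 for miR-144-3p. Without replicate 2 the log2 fold of miR-451a was 1.81 (edgeR adjusted p = 0.000603) and that of miR-486a-3p 1.20 (edgeR adjusted p = 0.0418). That fit called 47 miRNAs in all and the one without replicate 1 called 35, against 4 with both. With 1 knockout left, the spread in those fits comes from the wild types. MiR-1a-3p, a defining muscle miRNA, was lowest in the same replicate 1, at 84745 CPM, and highest in replicate 2, at 451732 CPM. The wild types had 161095 and 199962 CPM. Of the muscle list, miR-133b-3p, miR-206-3p, miR-208b-3p and miR-499-5p were likewise lowest in replicate 1 and highest in replicate 2. MiR-133a-3p and miR-208a-3p were not. MiR-133a-3p had 190186 and 214205 CPM in the knockouts against 169298 and 219527 CPM in the wild types. MiR-208a-3p had 120.7 CPM in knockout replicate 1 and 67.06 CPM in wild type replicate 1. The part of these muscle differences in the erythroid values was not tested.

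With both stages in one additive fit, so that 3 knockout libraries met 3 wild types, edgeR called 0 of the 5 members, beside 0.736% of 679 called. MiR-451a had the largest difference of the 5, a knockout over wild-type log2 fold of 1.84 (SE 0.76, edgeR adjusted p = 0.989). It was the only member among the 14 miRNAs at an unadjusted p under 0.05 in edgeR. The other log2 folds were 1.101 for miR-486a-5p, 1.09 for miR-486a-3p, 0.91 for miR-144-5p and 0.37 for miR-144-3p. DESeq2 called 5 miRNAs, none a member. For miR-451a the log2 fold stayed above 0 whichever library was left out, from 1.01 to 2.46.

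**Figure D3:**
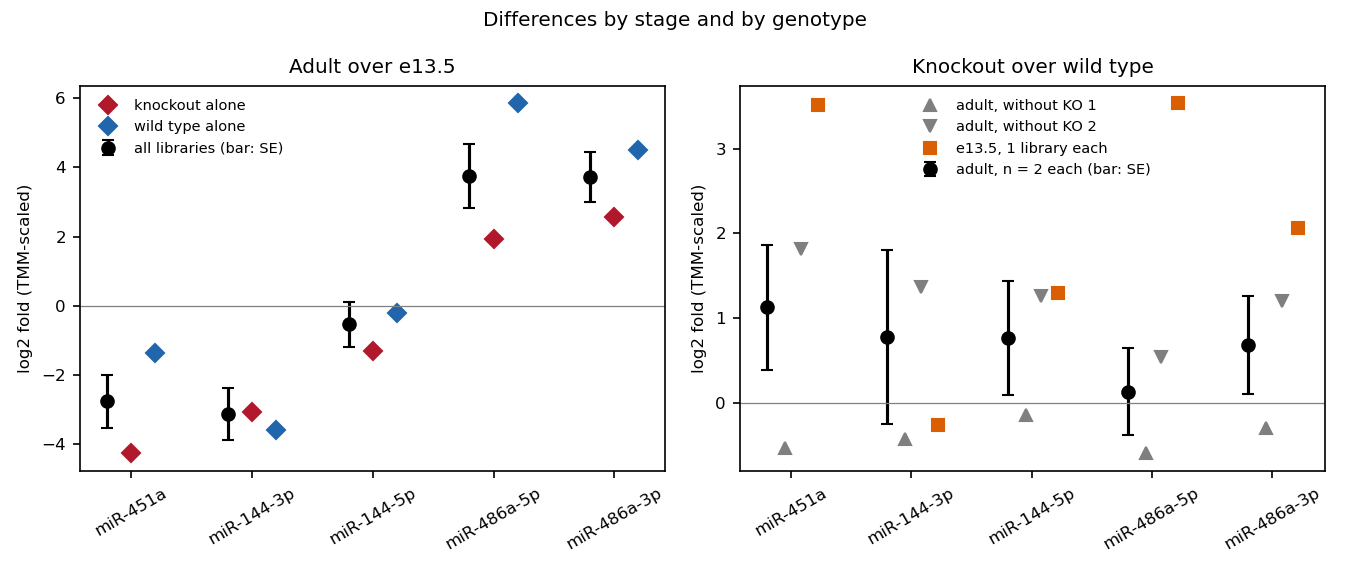
Log2 folds of TMM-scaled values for adult over e13.5 (left) and knockout over wild type (right); black points are the edgeR fits with SE bars, and the other symbols are fits in 1 genotype, fits without an adult knockout replicate, or the e13.5 pair with 1 library each. On the right every adult value is below 0 without knockout replicate 1, while at e13.5 miR-451a and miR-486a-5p are at 3.52 and 3.53.

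Counts of the mir-451a hairpin that were not assigned to the mature miRNA were found mainly at e13.5. They were 0 of 5762 (which allows up to 0.0521%) and 3 of 797 in the adult knockouts and 1 of 1913 and 1 of 1524 in the adult wild types, at most 0.376%. In the e13.5 knockout they were 474 of 20639, or 2.30% (Wilson 95% interval 2.10 to 2.51), and in the e13.5 wild type 339 of 3719, or 9.12% (8.23 to 10.1). Neither adult nor e13.5 libraries had any such count at mir-144, which with 58 to 277 hairpin counts allows shares of up to 1.08% to 5.17%, and at mir-486a the largest share was 0.0335%, with 0 of 3037 in the e13.5 wild type allowing up to 0.0988%. The median share over hairpins of 500 or more counts, single-copy by name, was at most 0.0253% in every library. At e13.5 15 of 122 hairpins in the knockout and 11 of 140 in the wild type had larger shares than mir-451a. The 90th percentile was 22.9% in the e13.5 knockout and 2.12% in the e13.5 wild type, against 0.208% to 0.418% in adults. Larger shares at e13.5 were thus not particular to mir-451a. The table holds no read positions or lengths, so where in the hairpin these reads lie is not known.

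**Figure D4:**
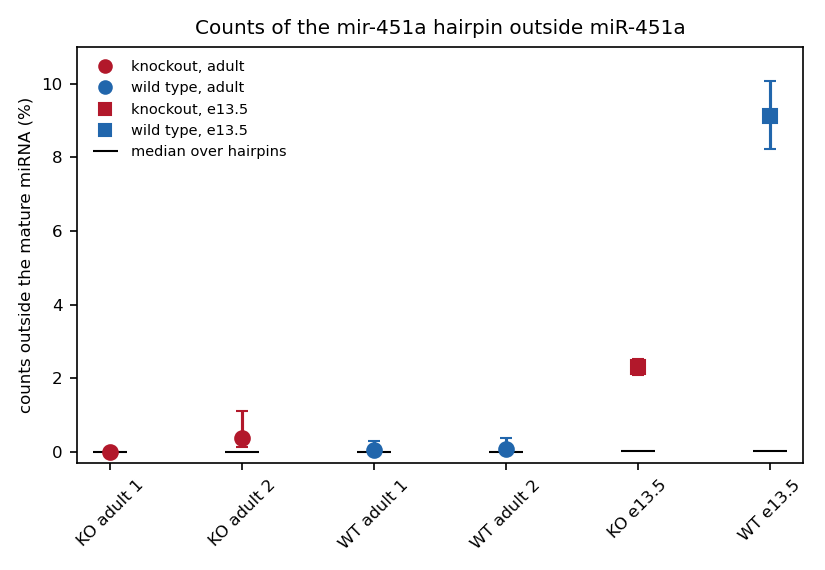
Share of mir-451a hairpin counts not assigned to miR-451a, in percent, with Wilson 95% intervals (points: libraries; black dashes: median over hairpins of 500 or more counts). The share is 2.30% and 9.12% in the e13.5 knockout and wild type and at most 0.376% in adults.

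Other miRNAs of blood were read beside the members, to see whether they moved with them. Of 11 further miRNAs abundant in red cells, 9 rose in adults against e13.5, 1 fell and 1 did not pass, beside 28.4% of all tested miRNAs that rose and 29.3% that fell (median log2 fold 2.79, against 0.06 over all tested). MiR-16-5p, which restrains the cell cycle, was higher in adults by 5.79 on the log2 scale (SE 0.62; adjusted p = 0.000154 in edgeR), and miR-22-3p by 3.66 (SE 0.74; adjusted p = 0.00306 in edgeR). The one that fell was miR-363-3p of the miR-106a cluster, named after its values were seen (log2 fold −3.74, SE 1.36, edgeR adjusted p = 0.0415). It had as few as 0 counts in an adult library. In the e13.5 pair the list had a median log2 fold of −0.56, knockout over wild type, beside −0.42 over all 565 miRNAs compared. MiR-363-3p, at 2.47, was the only one at least 4-fold higher, beside 8.32% of those miRNAs. Neither value sets the list apart from all miRNAs.

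In sum, leukocyte miRNAs were scarce at e13.5, and miRNAs that decline during erythroid maturation were lower there than in adults. These lists share 3 of their 6 members. The 6 leukocyte miRNAs summed to 2732 to 3109 CPM in adults and to 82.1 and 102 CPM in the e13.5 knockout and wild type. Of them 4 rose in adults, beside 28.4% of all tested miRNAs that rose, and the 2 arms of miR-142a did not pass. MiR-142a-3p had 5.36 to 93.5 CPM in adults, and its 9.85 and 15.2 CPM in the e13.5 knockout and wild type lay within that range. MiR-142a-5p had 24.28 to 91.27 CPM in adults and 23.85 and 12.7 CPM in the e13.5 knockout and wild type. MiR-223-3p, a neutrophil miRNA on both lists, had 3180 to 11721 counts in adults, 20 in the e13.5 knockout and 57 in the e13.5 wild type. Its log2 fold of adult over e13.5 was 6.74 (SE 0.78, edgeR adjusted p = 0.000181). All 6 of the second list rose in adults, beside the same 28.4%. MiR-221-3p, a repressor of Kit, had 943 to 1802 CPM in adults. It had 12.3 and 10.2 CPM in the e13.5 knockout and wild type. The second list summed to 23286 to 42325 CPM in adults and to 970 and 1332 CPM in the e13.5 knockout and wild type. Most of its e13.5 sum was miR-24-3p, at 904 and 1288 CPM in the same order. Between knockouts and wild types edgeR called none of these miRNAs, in adults or over both stages, where it called 4 and 5 miRNAs in all.

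Liver is the main site of red cell production in the mid-gestation mouse, and 3 liver miRNAs were read as well. MiR-122-5p, the defining one, had 55 and 8 counts in the adult knockouts and 27 and 7 in the adult wild types, against 512 in the e13.5 knockout and 403 in the e13.5 wild type. Its log2 fold of adult over e13.5 was −5.10 (SE 0.74, edgeR adjusted p = 0.000576). MiR-194-5p rose in adults (log2 fold 4.92, edgeR adjusted p = 0.000925), and miR-192-5p did not pass, so the list had no common direction. The summed list held 0.0488% to 0.0711% of adult counts, 0.0858% in the e13.5 knockout and 0.0683% in the e13.5 wild type. Its part in the levels of miR-451a was not tested.

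The ratio of miR-451a to miR-23a-3p, which serves as a gauge of red cell lysis in blood samples, was 0.0247 and 0.00353 in the adult knockouts and 0.00518 and 0.00553 in the adult wild types. At e13.5 it was 23.4 in the knockout and 1.14 in the wild type. MiR-23a-3p itself had 224779 to 369214 counts in adults but 862 and 2963 in the e13.5 knockout and wild type, so the stage gap of this ratio comes from both its terms. Within adults knockout replicate 1 was again the highest.

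**Figure D5:**
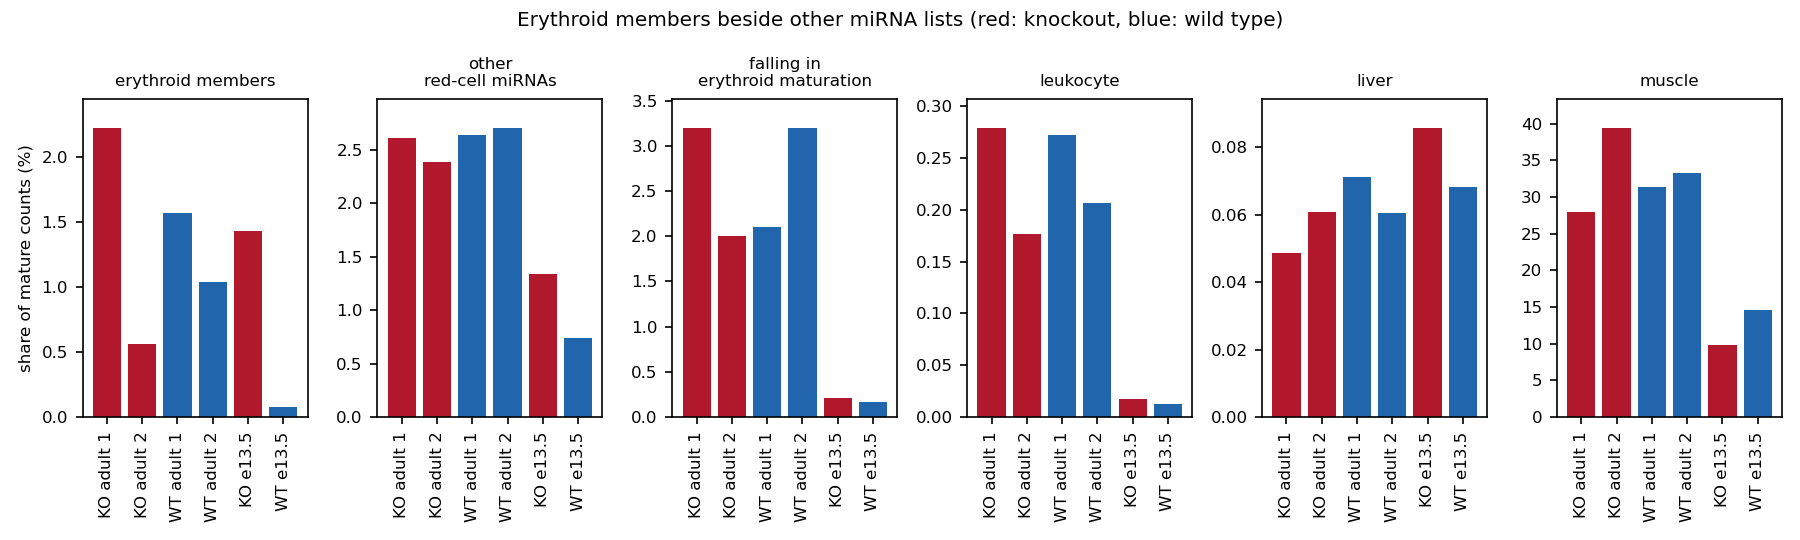
Share of mature counts in percent held by the 5 erythroid miRNAs and by 5 other lists, 1 bar per library (red for knockout, blue for wild type). The erythroid members hold 1.43% in the e13.5 knockout and 0.0748% in the e13.5 wild type, while the leukocyte list is under 0.02% in both.

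MiRNAs with the most similar pattern were sought among 320 others by the root mean square difference of centred log2 levels over the 6 libraries. The nearest to miR-451a were miR-342-5p (0.59), miR-99b-3p (0.73) and miR-501-3p (0.80), and miR-486a-5p was far off at 3.26. For miR-144-3p they were miR-375-3p (0.49), miR-184-3p (0.50) and miR-574-5p (0.55), with miR-451a at 1.20 behind 43 others. For miR-486a-5p they were miR-324-3p (0.39), miR-328-3p (0.57) and miR-139-3p (0.60), and its own 3p arm was at 0.56. The values of miR-328-3p show the shared shape, with 336 to 887 CPM in adults and 149 and 26.6 CPM in the e13.5 knockout and wild type.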

How the data were processed

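Small RNA libraries were built from TRIZOL-extracted total RNA with the NEXTFLEX kit, per the labels. The authors deposited raw read counts per hairpin and mature miRNA; the submitters' processing notes name the build mm10. For aligner, counter, trimming and multiply matching reads, the entry is: not given in the sources used here. A hairpin row and its mature rows share reads, so mature rows were used, and 22 rows agreeing within 1% with another were merged, miR-486b into miR-486a among them. Tests used edgeR 4.0.16 in R 4.3.3 (glmQLFit, glmQLFTest, two-sided, TMM, filterByExpr at a minimum count of 10, Benjamini-Hochberg threshold 0.05) on the whole table. Adults were fitted alone; stage and genotype over both stages were fitted additively. The e13.5 pair used log2 CPM with a prior count of 2, without a test. TMM factors over all libraries ran from 0.568 to 2.17. Alternatives were DESeq2 1.42.0, other scaling, no filter, unmerged and hairpin rows, and left-out libraries. The fits were also run on simulated data with less spread than these libraries, which checks the code and not the calls made here. Named miRNAs were all members with a count, the 3 nearest in pattern to miR-451a, miR-144-3p and miR-486a-5p, and from each list the 2 most abundant plus up to 4 past the threshold per comparison, of which those that bear on the members are given. The members and lists were chosen with earlier results of these data known. Columns of other samples numbered 0.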

Additional observations from a re-analysis of the deposited data

Results flagged for a closer look

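Among the 4 adult libraries, knockout replicate 1 stood apart for miR-451a, at 418 CPM after TMM scaling against 79.5 to 120.0 CPM in the other 3. The gap to the nearest library exceeded Dixon's critical value at 95%, which chance passes in about 1 of 20 groups. No other member passed it. The 4 libraries include both genotypes, which were 2 libraries each.

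The hairpin mir-451b, which lies opposite mir-451a and is no member, had 23 counts in the e13.5 knockout, 1 in adult knockout replicate 1 and 0 in the other 4 libraries, the wild types included. Its mature row was at 0 in all 6 libraries. The e13.5 knockout also had the most mir-451a counts, 20639.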

How the results depend on the processing

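The stage directions of the 5 members were kept in every setting run. In no setting other than leaving out a replicate did a member's fitted direction turn. The count of miRNAs called between adult knockouts and wild types was 9 without a filter and ran from 5 to 47 when a library was left out, with 0 to 2 members called. Over both stages it was 3 with hairpin rows and 3 to 5 with a library left out. Between stages it was 261 to 381 with a library left out and 231 in the knockouts alone, with 3 to 4 members and 1 member called. The interaction count was 4 with DESeq2, 1 with library totals, 2 without a filter and 0 to 87 with a library left out (0 to 3 members). The e13.5 pair had 83 miRNAs at least 4-fold higher and 30 lower with library totals, against 47 and 56 with TMM.

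With a library left out, adult knockout over wild-type log2 folds ran from −0.53 to 1.81 for miR-451a, −0.59 to 0.54 for miR-486a-5p, −0.29 to 1.20 for miR-486a-3p, −0.15 to 1.26 for miR-144-5p and −0.43 to 1.70 for miR-144-3p. For miR-144-3p they ran from −0.27 to 0.71 over both stages and from −0.19 to 1.99 in the interaction. The cause was not tested.

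Between stages the median log2 fold of all miRNAs was 0.06 under TMM (49.2% of calls higher in adults), −0.93 under library totals (31.3%) and −0.72 under DESeq2's size factors (35.6%). With library totals the members' stage log2 folds were −3.81 for miR-451a, −4.09 for miR-144-3p, −1.55 for miR-144-5p (edgeR adjusted p = 0.122, still not called), 2.58 for miR-486a-5p and 2.66 for miR-486a-3p. The replicate number as a block gave 5 calls in adults, 5 over both stages and 398 between stages, and changed no member's call. Deviations of same-numbered adult libraries correlated at 0.187 over 162 miRNAs, and no label says that a number marks a shared litter or day. Depth limits miR-144 most, with 11 counts in 1 library.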
